A study of Homo sapiens with 8 samples.

Results

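Cholesterol and fatty acid synthesis was followed in LN229 glioblastoma cells through 31 genes, listed by symbol with no threshold on their measured values. Earlier results of these data were known when the list was drawn up. All 31 were found among the 26364 genes of the count file, and all 31 were among the 14201 genes that passed the filter on low counts. By role, 7 belonged to the cytosolic acetyl-CoA and mevalonate pathway, 11 to the squalene and sterol ring branch, 6 to the regulation of the SREBP factors and sterol transport, and 7 to fatty acid synthesis, elongation and desaturation. RNA of 2 stable clones was sequenced in 8 libraries, 2 per group, with and without temozolomide (TMZ), a DNA methylating drug used against glioblastoma. The clone Surv-GFP (D6) carried a plasmid for survivin fused to eGFP with a functional nuclear export sequence (NES) and held the fusion protein mainly in the cytoplasm. The clone SurvNESmut-GFP (L2) carried the same fusion with leucines of the NES replaced by alanine, which traps the protein in the nucleus. TMZ-exposed cells received 50 µM for 48 h, the other cells of both clones were left untreated, and all 4 groups were kept in medium with serum and with G418, which selects for the plasmid. The sources used here do not say whether untreated cells received the solvent of the drug. Serum is a source of cholesterol and fatty acids for cultured cells. Each genotype was 1 clone, so that the NES mutation and any other difference between the clones cannot be told apart. The study describes biological replicates run as technical duplicates and does not say which of these the letters a and b stand for, so all p-values measure only the spread between a and b, which may be technical.

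Cells build cholesterol from acetyl-CoA through mevalonate, isoprenoids and squalene, and a series of enzymes then trims the first sterol, lanosterol, to cholesterol. Fatty acids are built from the same acetyl-CoA and are then elongated and desaturated. Most of these enzymes are transcribed under the SREBP factors, which are held in the endoplasmic reticulum with SCAP and the INSIG proteins when sterols are plentiful and are released to the nucleus when sterols are scarce. Many glioblastomas are known to depend on cholesterol that they take up and on the SREBP branch for fatty acids.

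The sequence just upstream of the start sites was read for 27 of the 31 genes from RefSeq (GRCh38.p14). FDFT1, SQLE, ACAT2 and FASN had no entry. On either strand from 250 bases before to 50 bases after the start site, the CCAAT box (CCAAT) was found in 17 of the 27 promoters (63.0%), against 34.6% of all 35116 promoters of the table and 36.8% of the 10454 that belonged to tested genes. The GC box (GGGCGG) was found in 25 of the 27 (92.6%), against 45.0% of all promoters and 69.2% of those of tested genes. The E-box (CACGTG) was found in 4 (14.8%, against 7.26% of all and 10.0% of tested), of which that of LSS lay after the start site. The sterol regulatory element, searched as TCACNCCAC, was found in 1 promoter, that of SREBF2 (3.70% of the members, against 1.13% of all and 1.11% of tested). Each motif was searched on its own, so matches can share letters at their ends. Other forms of the sterol regulatory element, and sequence outside this stretch, were not searched, so a missing match does not show that the element is absent. Shown here are 3 genes whose TMZ effects differed most between the clones (INSIG1, STARD4 and CYP51A1) and the only member with a match to TCACNCCAC. Capitals mark the CCAAT box, the E-box and the sterol regulatory element, and each run holds the 250 bases upstream from its 5′ end on the strand of the gene, ending at the base before the start site. INSIG1 lies on the plus strand at chr7:155297628-155297877, STARD4 on the minus strand at chr5:111512536-111512785, CYP51A1 on the minus strand at chr7:92134478-92134727 and SREBF2 on the plus strand at chr22:41832855-41833104.
INSIG1: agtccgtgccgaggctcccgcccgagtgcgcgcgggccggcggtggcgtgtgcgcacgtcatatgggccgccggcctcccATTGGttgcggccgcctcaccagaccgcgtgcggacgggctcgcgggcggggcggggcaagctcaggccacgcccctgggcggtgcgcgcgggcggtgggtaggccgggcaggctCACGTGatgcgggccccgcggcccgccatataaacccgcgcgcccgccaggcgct
STARD4: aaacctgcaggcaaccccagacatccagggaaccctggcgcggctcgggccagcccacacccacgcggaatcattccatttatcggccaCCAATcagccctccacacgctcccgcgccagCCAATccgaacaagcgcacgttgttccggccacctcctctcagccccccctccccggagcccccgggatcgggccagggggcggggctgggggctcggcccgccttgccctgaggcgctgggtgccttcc
CYP51A1: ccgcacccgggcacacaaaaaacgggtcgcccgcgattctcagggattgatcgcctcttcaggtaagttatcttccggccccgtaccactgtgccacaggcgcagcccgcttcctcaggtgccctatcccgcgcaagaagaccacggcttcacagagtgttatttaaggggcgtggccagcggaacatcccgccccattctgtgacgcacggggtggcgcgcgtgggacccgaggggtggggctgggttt
SREBF2: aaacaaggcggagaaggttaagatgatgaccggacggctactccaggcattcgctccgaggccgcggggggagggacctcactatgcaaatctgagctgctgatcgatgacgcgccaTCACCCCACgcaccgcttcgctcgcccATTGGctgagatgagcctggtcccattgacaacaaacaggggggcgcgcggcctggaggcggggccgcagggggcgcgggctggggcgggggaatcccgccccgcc
The INSIG1 run held 1 CCAAT box and 1 E-box, the STARD4 run 2 CCAAT boxes, the SREBF2 run the sterol regulatory element at position -133 and a CCAAT box at position -106 from the start site, and the CYP51A1 run none of the marked motifs. With TMZ in SurvNESmut-GFP, 11 of the 17 members with a CCAAT box and 7 of the 10 without one were called lower (19.1% of all tested genes were), with medians of -0.31 and -0.37 on the log2 scale. Whether these groups of members differ was not tested.

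Counts on genes summed to 15826923 in the shallowest library and 18861603 in the deepest, and levels are given as CPM, counts scaled to a common library size, with TMM factors of 0.978 to 1.02. The cells held mRNA of the glioma cell genes VIM, NES, CD44, EGFR, SOX2, OLIG2 and S100B, while GFAP had at most 17 counts and SOX9 at most 3 counts in a library. Of the 7 tested, 4 were lower in untreated SurvNESmut-GFP than in untreated Surv-GFP and 2 higher (29.4% and 34.7% of all tested genes were). The log2 differences reached -4.26 for S100B, -2.29 for OLIG2 and -1.40 for SOX2. Markers of immune, endothelial, epithelial and neuronal cells (PTPRC, CD3E, PECAM1, CDH5, EPCAM and RBFOX3) had at most 7 counts in a library. Counts on BIRC5, the survivin gene, cannot be split into the transgene and the endogenous gene, and stood at 1152 and 1113 CPM in untreated Surv-GFP, 1938 and 2029 CPM in Surv-GFP with TMZ, 407 and 414 CPM in untreated SurvNESmut-GFP and 262 and 253 CPM in SurvNESmut-GFP with TMZ. Reads that fell on no gene made up 11.2% to 14.3% of a library, with the highest share in SurvNESmut-GFP TMZ replicate a. Exons of 15 of the 31 genes overlap those of another gene in GENCODE release 29, mostly on the other strand, and pseudogenes are named there for FDPS, CYP51A1, HSD17B7, SCD and FADS2. The sources used here do not say which annotation and strand the authors counted with, and reads of such stretches may have been assigned to either gene or to none.

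The 2 libraries of SurvNESmut-GFP with TMZ differed from each other in the synthesis genes. In SurvNESmut-GFP under TMZ, replicate a was below replicate b for 29 of the 31 genes, with a median difference of -0.26 on the log2 CPM scale, while 51.9% of all tested genes were lower in a than in b. In the other 3 groups replicate a was below b for 13, 10 and 15 of the 31, with medians between 0.01 and 0.02. The gap was widest for INSIG1 and HSD17B7 (both -0.73) and for FADS2 (-0.67). Whether the share of reads on no gene has a part in this gap was not tested. With 2 libraries it cannot be said which of them is the unusual one. Each test used an estimate of spread drawn from all groups together. For genes with this gap, standard errors and p-values of comparisons with this group can therefore understate its spread. A fit without replicate a or b of this group has no gap, and its spread comes from the other groups alone. P-values and counts of genes passing in such fits carry that limit. Because of the gap, the totals of genes that fell with TMZ in SurvNESmut-GFP are given with and without each of its TMZ libraries. The totals for the difference of effects, and of genes lower than in Surv-GFP under TMZ, are given likewise. So are the values of single genes that were called and moved by over 1.5 times, and those of some genes not called. Other counts that rest on this group, such as those by role, promoter motif and related lipid list, are given with both libraries only.

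**Figure D1:**
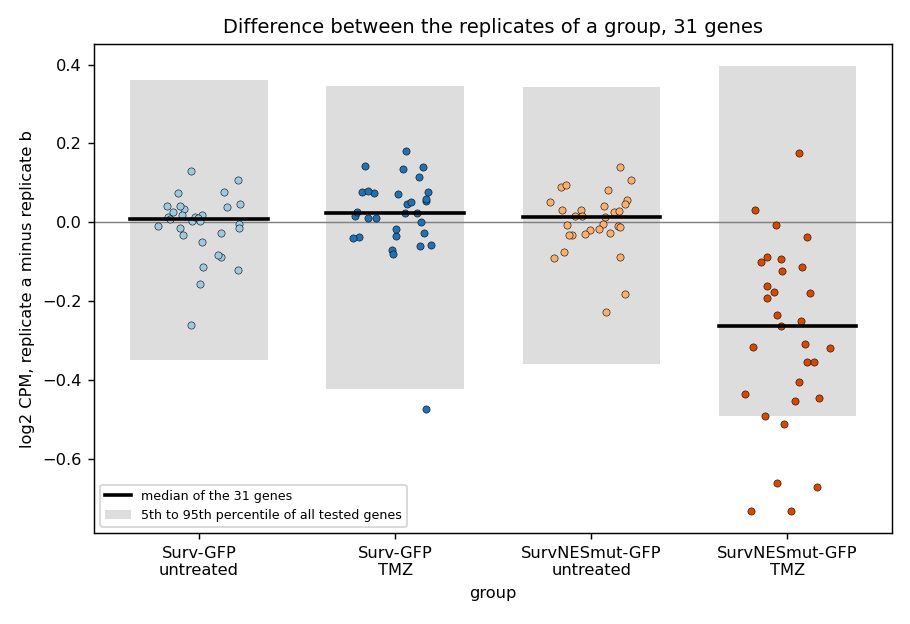
Difference between replicates a and b of each group on the log2 CPM scale (vertical axis), with 1 point per gene, a black line at the median of the 31 genes and a grey box from the 5th to the 95th percentile of all tested genes. The points of the first 3 groups lie around 0, and 29 of the 31 points of SurvNESmut-GFP TMZ lie below 0.

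The first comparison asked how TMZ moved these genes in the clone with a functional NES. In Surv-GFP, 13 of the 31 genes fell (41.9%, against 28.9% of all tested genes) and 3 rose (9.68%, against 30.1% of all tested genes) at an adjusted p of 0.05 in edgeR's quasi-likelihood test. Their median log2 fold change was -0.16 (0.00 over all tested genes). By role, 5 of 7 fatty acid genes fell, 5 of 11 sterol ring genes, 2 of 6 regulators and 1 of 7 mevalonate genes. The 3 genes that rose were CYP51A1, STARD4 and FADS1. In bulk RNA a lower level per cell and fewer cells with the mRNA cannot be told apart. Of the 16 calls, 8 held in all 17 alternative analyses, and those of MVD, FDFT1, SQLE, SC5D, TM7SF2, SCD, STARD4 and FADS1 were lost in between 1 and 6 of them.

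The same comparison in SurvNESmut-GFP gave 22 of 31 genes that fell (71.0%, against 19.1% of all tested genes). None rose (18.6% of all tested genes rose). At an unadjusted p under 0.05 the same edgeR fit gave 0, and DESeq2 gave 0 at its adjusted p. The median was -0.38 (0.00 over all tested genes), and 30 of the 31 fitted values were below 0, the exception being SCAP. Here 6 of 7 mevalonate genes fell, 7 of 11 sterol ring genes, 5 of 6 regulators and 4 of 7 fatty acid genes. Without replicate a of this group 16 genes fell and the median was -0.17, and without replicate b 24 fell and the median was -0.58. The CPM of both TMZ libraries of SurvNESmut-GFP lay below all 6 other libraries for 14 of the 31 genes (45.2%, against 12.6% of all tested genes). Among them were SQLE, FDFT1, INSIG1, SREBF1, FASN and SCD. This position also holds the difference between the untreated clones and is no measure of the TMZ effect alone. FDFT1, SREBF1, FASN and SCD were lower in SurvNESmut-GFP already without TMZ, while SQLE and INSIG1 did not pass there. ACLY was among the 14 with a fitted TMZ change of -0.01. Of the 22 calls, 13 held in all 17 alternatives, and those of PMVK, ACAT2, CYP51A1, MSMO1, NSDHL, DHCR7, INSIG1, STARD4 and FADS1 were lost in between 1 and 9 of them.

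**Figure D2:**
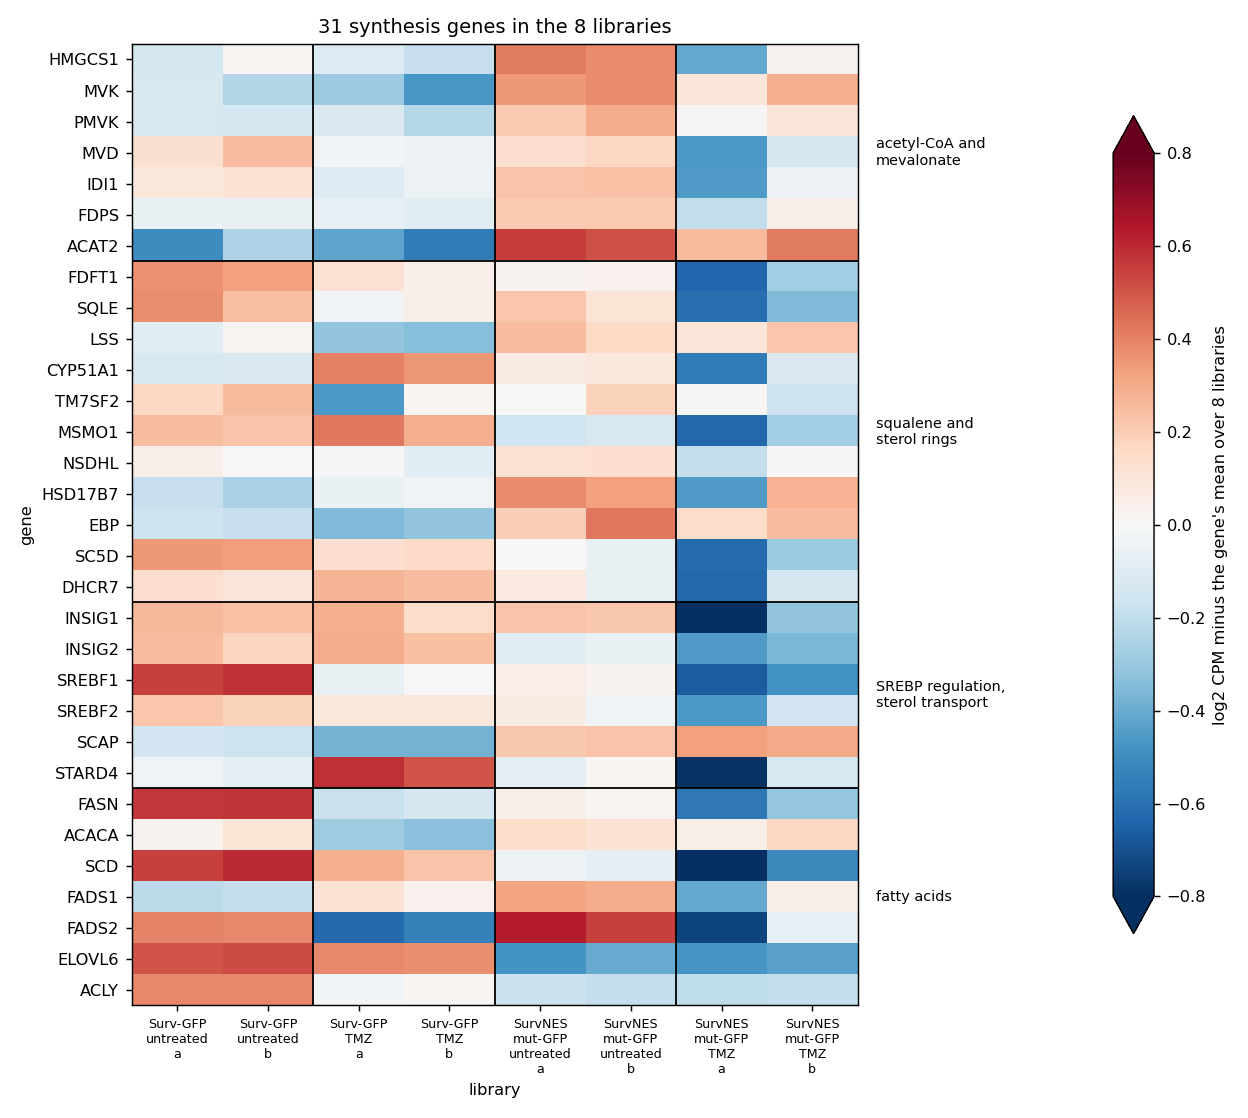
Level of each of the 31 genes (rows, grouped by role) in each of the 8 libraries (columns), as log2 CPM minus the mean of the gene over the 8 libraries, on a colour scale from -0.8 (blue) to 0.8 (red). The last 2 columns, SurvNESmut-GFP under TMZ, are blue for most genes, more so in replicate a than in replicate b.

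Set side by side, 8 genes fell in both clones, namely MVD, FDFT1, SQLE, SC5D, SREBF1, FASN, SCD and FADS2, which is 8 of the 13 that fell in Surv-GFP and 8 of the 22 that fell in SurvNESmut-GFP. CYP51A1, STARD4 and FADS1 rose in Surv-GFP and fell in SurvNESmut-GFP. LSS, TM7SF2, SCAP, ACACA and ACLY passed the threshold as lower in Surv-GFP and did not pass in SurvNESmut-GFP, and 11 genes passed as lower in SurvNESmut-GFP and did not pass in Surv-GFP. MVK, HSD17B7, EBP and ELOVL6 passed in neither. The shares of all tested genes that fell in both clones, or moved in opposite directions, are not given here. Whether the shared and opposite calls are particular to the synthesis genes was therefore not tested. Whether effects differed between the clones was tested with the difference itself, the TMZ effect in SurvNESmut-GFP minus that in Surv-GFP. This difference passed the threshold as below 0 for 11 genes (35.5%, against 20.2% of all tested genes) and as above 0 for 5 (16.1%, against 16.6% of all tested genes), with a median of -0.21 (0.00 over all tested genes). Without SurvNESmut-GFP TMZ replicate a it passed as below 0 for 8 genes and as above 0 for 6, with a median of -0.07, and without replicate b for 18 and 3, with a median of -0.38. Of the 16 differences, those of CYP51A1, INSIG2, SCAP, ACACA, FADS1 and ACLY held in all 16 alternatives that could be fitted.

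**Figure D3:**
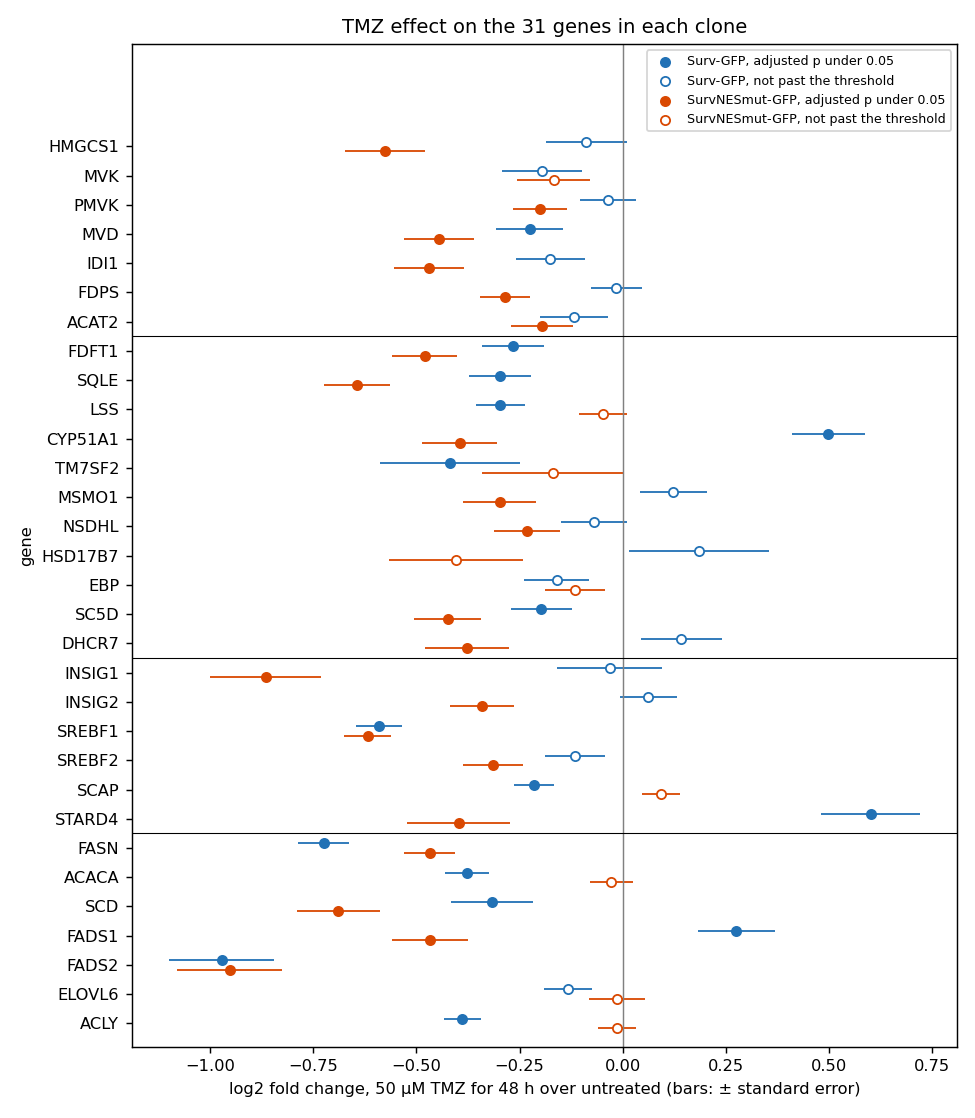
TMZ effect on each gene as the log2 fold change over untreated cells (horizontal axis, bars are ± 1 standard error) in Surv-GFP (blue) and SurvNESmut-GFP (orange), filled where the edgeR adjusted p was under 0.05. CYP51A1, STARD4 and FADS1 have filled points on opposite sides of 0, while SREBF1 and FADS2 have nearly the same fitted effect in both clones. For FADS2 the difference of effects was 0.32 without SurvNESmut-GFP TMZ replicate a and -0.35 without replicate b.

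Among the mevalonate genes, HMGCS1, which condenses acetyl-CoA units on the way to mevalonate, stood at 48.7 and 54.3 CPM in untreated Surv-GFP, 49.7 and 47.1 CPM in Surv-GFP with TMZ, 71.5 and 69.5 CPM in untreated SurvNESmut-GFP and 40.3 and 54.5 CPM in SurvNESmut-GFP with TMZ. The untreated SurvNESmut-GFP libraries were the highest, and the SurvNESmut-GFP libraries with TMZ lay around the level of the other clone. The fall in SurvNESmut-GFP was -0.58 ± 0.10 (SE) on the log2 scale (edgeR adjusted p = 0.000185) and the difference from Surv-GFP was -0.49 ± 0.14 (adjusted p = 0.0109). IDI1, the isomerase that makes the active isoprene unit, fell by 27.8% in SurvNESmut-GFP, from 99.1 and 99.7 to 61.9 and 81.9 CPM. FDPS, which joins isoprene units to farnesyl diphosphate, fell by 17.9% there, from 226 and 227 to 171 and 201 CPM. In Surv-GFP the fitted changes of HMGCS1, IDI1 and FDPS were -0.09, -0.18 and -0.02 and did not pass. MVD, a decarboxylase of the pathway, fell by 14.5% in Surv-GFP and fell by 26.6% in SurvNESmut-GFP. The fall in Surv-GFP did not pass without either TMZ library or without untreated replicate b (edgeR adjusted p up to 0.212). In SurvNESmut-GFP, PMVK, a kinase of the pathway, fell by 13.0% and ACAT2, the cytosolic thiolase that makes acetoacetyl-CoA, fell by 12.7%. These falls were lost in 4 and 9 of 17 alternatives, with adjusted p up to 0.173 and 0.268. MVK, the mevalonate kinase, did not pass in either clone. The difference of HMGCS1 between the clones was lost with a robust prior and without Surv-GFP untreated replicate a (adjusted p = 0.0592). That of FDPS, -0.27, was lost without any library but SurvNESmut-GFP TMZ replicate b (adjusted p up to 0.0823). Without SurvNESmut-GFP TMZ replicate a the fall of HMGCS1 was -0.37 and its difference -0.29, and without replicate b they were -0.80 and -0.72. Without replicate a the falls of IDI1, FDPS, MVD and ACAT2 were -0.28, -0.17, -0.29 and -0.11, from -0.47, -0.29, -0.45 and -0.20 with both libraries, and the difference of FDPS was -0.16. The differences of IDI1 and MVD, -0.29 and -0.22, did not pass with both libraries. They were -0.11 and -0.07 without replicate a and -0.51 and -0.38 without replicate b.

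In the squalene and sterol ring branch, SQLE, the epoxidase that oxidizes squalene at a rate-limiting step, stood at 65.5 and 59.8 CPM in untreated Surv-GFP, 49.7 and 52.2 with TMZ, 58.9 and 54.7 in untreated SurvNESmut-GFP and 33.3 and 39.6 with TMZ. It was lower with TMZ in each clone without overlap, and fell by 18.7% in Surv-GFP and by 36.0% in SurvNESmut-GFP. The difference of the SQLE effects was -0.35 ± 0.11 (edgeR adjusted p = 0.0205) and was lost in 5 of 16 alternatives, among them without SurvNESmut-GFP TMZ replicate a, where it was -0.23. FDFT1, squalene synthase, fell from 184 and 179 to 155 and 147 CPM in Surv-GFP and from 146 and 147 to 92.2 and 118 CPM in SurvNESmut-GFP. The falls of SQLE and FDFT1 in Surv-GFP did not pass without untreated replicate a of that clone (adjusted p = 0.0532 and 0.0504). The FDFT1 fall in SurvNESmut-GFP was -0.48 with both TMZ libraries and -0.31 without replicate a. The difference of the FDFT1 effects, -0.21, did not pass with both libraries. It was -0.05 without replicate a and -0.40 without replicate b. LSS, which folds oxidized squalene into lanosterol, fell by 18.6% in Surv-GFP (edgeR adjusted p = 0.000439), and its values in SurvNESmut-GFP, 110.0 and 103 CPM without and 98.8 and 108 CPM with TMZ, overlapped. The difference of the LSS effects, 0.25 ± 0.08 (adjusted p = 0.0269), was lost in 6 of 16 alternatives.

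CYP51A1, the demethylase that acts on lanosterol, went in opposite directions in the clones. It stood at 161 and 162 CPM in untreated Surv-GFP and 232 and 224 with TMZ, and at 183 and 186 CPM in untreated SurvNESmut-GFP and 119 and 162 with TMZ. The rise in Surv-GFP was 0.50 ± 0.09 (SE; edgeR adjusted p = 0.000145), the fall in SurvNESmut-GFP -0.40 ± 0.09 (adjusted p = 0.00257, and 0.0756 with a robust prior), and the difference -0.89 ± 0.13 (adjusted p = 4.44e-05). Without SurvNESmut-GFP TMZ replicate a the fall was -0.19 and the difference -0.69, and without replicate b they were -0.63 and -1.13. MSMO1, the sterol methyl oxidase of the following steps, had 70.1 and 63.8 CPM in Surv-GFP with TMZ and 33.8 and 43.3 CPM in SurvNESmut-GFP with TMZ, from 61.9 and 61.1 and 46.8 and 47.8 CPM in the untreated cells. Its difference of effects was -0.42 (adjusted p = 0.0113) and did not pass without Surv-GFP TMZ replicate a (adjusted p = 0.0615). Its fall in SurvNESmut-GFP did not pass without replicate a of the TMZ group (adjusted p = 0.244) or without either untreated library. DHCR7, which carries out the last reduction to cholesterol, had a difference of -0.52 (adjusted p = 0.00834), and this was lost with DESeq2, with a robust prior (adjusted p = 0.159) and without SurvNESmut-GFP untreated replicate a. The fall of DHCR7 in SurvNESmut-GFP, -0.38, did not pass in 4 of 17 alternatives and was -0.15 without TMZ replicate a. Without replicate b it was -0.64, and the difference of DHCR7 was -0.29 without replicate a and -0.78 without replicate b. The fall of MSMO1 was -0.30, and -0.13 and -0.48 without replicate a and without replicate b, and its difference was -0.25 without replicate a.

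SC5D, a sterol desaturase, fell by 12.8% in Surv-GFP and fell by 25.4% in SurvNESmut-GFP, the first of which did not pass in 4 of 17 alternatives (edgeR adjusted p up to 0.126). NSDHL, a sterol dehydrogenase, fell by 14.8% in SurvNESmut-GFP (adjusted p = 0.0317), which did not pass in 6 of 17 alternatives. Without SurvNESmut-GFP TMZ replicate a the falls of SC5D and NSDHL there were -0.27 and -0.14, from -0.42 and -0.23. The difference of the SC5D effects, -0.23, did not pass with both libraries. It was -0.07 without replicate a and -0.39 without replicate b. TM7SF2, a sterol reductase and the least counted of the 31, had 4.01 and 5.57 CPM in Surv-GFP with TMZ, a fall whose adjusted p of 0.0439 rose to 0.420 without replicate a. That fall was -0.42, and -0.19 and -0.70 without replicate a and without replicate b of the TMZ group. The fitted changes of EBP, a sterol isomerase, and HSD17B7, a keto-sterol reductase, did not pass in either clone. That of HSD17B7 in SurvNESmut-GFP was -0.40, and -0.07 without TMZ replicate a and -0.80 without replicate b. The difference of the HSD17B7 effects, -0.59, did not pass with both libraries. It was -0.26 without replicate a and -0.99 without replicate b.

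Of the regulators, INSIG1, the sterol-dependent anchor of SCAP and the SREBP factors and itself a well known SREBP target, had nearly the same level in 6 of the 8 libraries. It stood at 143 and 141 CPM in untreated Surv-GFP, 146 and 132 in Surv-GFP with TMZ and 139.9 and 139 in untreated SurvNESmut-GFP, against 57.6 and 95.7 in SurvNESmut-GFP with TMZ. The fall in SurvNESmut-GFP was -0.87 ± 0.13 (SE), a level that fell by 45.1% (edgeR adjusted p = 9.04e-05, and 0.0552 with a robust prior). The difference of effects was -0.83 ± 0.19 (adjusted p = 0.00217), and it did not pass with DESeq2 or with a robust prior (adjusted p = 0.136). Without replicate a the fall was -0.54 and the difference -0.51, without replicate b they were -1.27 and -1.24, and both libraries lay below the 6 others. INSIG2, the related anchor protein, fell by 21.0% in SurvNESmut-GFP, from 27.9 and 28.6 to 21.6 and 23.0 CPM, and its difference of -0.40 (adjusted p = 0.00600) held in all 16 alternatives.

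SREBF1, the gene of the SREBP factor known mainly for fatty acid synthesis, fell to a like degree in both clones. It stood at 256 and 261 CPM in untreated Surv-GFP and 168 and 176 with TMZ, and at 182 and 179 CPM in untreated SurvNESmut-GFP and 110.4 and 125 with TMZ. The falls were -0.59 ± 0.06 (SE; edgeR adjusted p = 1.29e-07) and -0.62 ± 0.06 (adjusted p = 4.09e-07), each held in all 17 alternatives, and their difference was -0.03 ± 0.08. SREBF2, the gene of the factor known mainly for cholesterol synthesis, fell by 19.6% in SurvNESmut-GFP and had a fitted change of -0.12 in Surv-GFP that did not pass. The SREBF2 fall was -0.31, and -0.17 without SurvNESmut-GFP TMZ replicate a and -0.47 without replicate b. The difference of the SREBF2 effects was -0.20 ± 0.10 and did not pass either (adjusted p = 0.145). It was -0.05 without SurvNESmut-GFP TMZ replicate a and -0.36 without replicate b. SCAP, which carries the SREBP factors to the Golgi, fell by 13.9% in Surv-GFP, from 93.2 and 92.5 to 80.0 and 80.0 CPM, and stood at 121 and 122 CPM without and 131 and 128 CPM with TMZ in SurvNESmut-GFP, a difference of effects of 0.31 (adjusted p = 0.00186).

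STARD4, a carrier of cholesterol between membranes and a known SREBP target, had the largest difference of effects of the 31 genes. It stood at 115 and 111 CPM in untreated Surv-GFP and rose to 176 and 167 with TMZ, while it stood at 112 and 119 CPM in untreated SurvNESmut-GFP and 68.0 and 107 with TMZ. The untreated groups overlapped, and the TMZ groups lay on either side of them. The rise in Surv-GFP was 0.60 ± 0.12 (SE; edgeR adjusted p = 0.000396, and 0.0729 with a robust prior) and the difference -0.998 ± 0.17 (adjusted p = 0.000278, and 0.0725 with a robust prior). The fall in SurvNESmut-GFP, -0.40 ± 0.13 (adjusted p = 0.0193), was -0.10 without replicate a (adjusted p = 0.244) and -0.76 without replicate b. It did not pass in 5 of 17 alternatives, among them DESeq2, a robust prior and each untreated library left out.

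**Figure D4:**
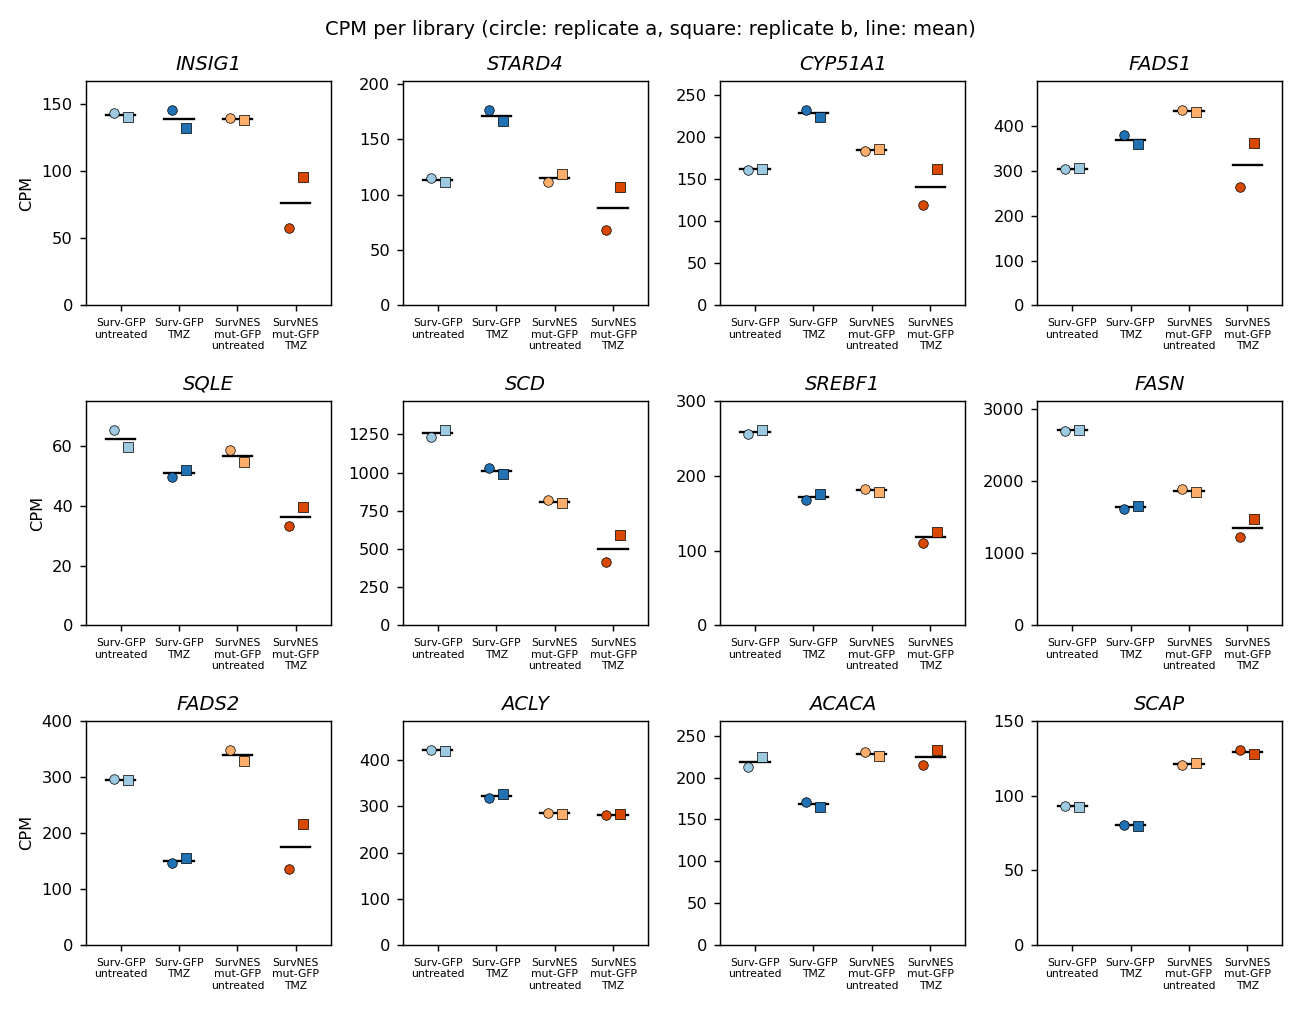
CPM of 12 of the genes in each library (vertical axes start at 0), with circles for replicate a, squares for replicate b and lines at the group means. INSIG1 is lower in the 2 SurvNESmut-GFP TMZ libraries than in the other 6, STARD4 and CYP51A1 are higher in Surv-GFP with TMZ than in all other groups, and ACLY and SCAP differ between the clones in both conditions.

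In the fatty acid branch FADS2, FASN and SCD fell in both clones, and the fall of FADS2 was the largest of the branch in each. FADS2, the desaturase that starts the path to highly unsaturated fatty acids, stood at 296 and 294 CPM in untreated Surv-GFP, 146 and 155 with TMZ, 348 and 329 in untreated SurvNESmut-GFP and 135 and 215 with TMZ. Its falls were -0.97 ± 0.13 and -0.95 ± 0.13 (SE; edgeR adjusted p = 5.83e-06 and 1.86e-05). The difference between them, 0.02 ± 0.18, was 0.32 without SurvNESmut-GFP TMZ replicate a and -0.35 without replicate b. FASN, fatty acid synthase, fell by 39.5% in Surv-GFP, from 2695 and 2704 to 1613 and 1655 CPM, and by 27.7% in SurvNESmut-GFP, from 1883 and 1845 to 1226 and 1471 CPM. The FASN fall was smaller in SurvNESmut-GFP by 0.26 ± 0.09 (adjusted p = 0.0287), which did not pass without any of the untreated libraries, without Surv-GFP TMZ replicate a or without SurvNESmut-GFP TMZ replicate b, where it was 0.12. SCD, the desaturase that makes oleate, fell from 1235 and 1279 to 1029.5 and 988 CPM in Surv-GFP and from 819 and 802 to 415 and 591 CPM in SurvNESmut-GFP. The fall in Surv-GFP did not pass with DESeq2, with a robust prior (adjusted p = 0.191) or without untreated replicate b. The difference of the SCD effects, -0.37 with an adjusted p of 0.0486, did not pass in 13 of 16 alternatives. It was -0.14 without SurvNESmut-GFP TMZ replicate a and -0.65 without replicate b, and the fall of SCD in SurvNESmut-GFP was -0.69 with both libraries and -0.45 without replicate a.

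ACLY and ACACA, which supply cytosolic acetyl-CoA and malonyl-CoA, fell in Surv-GFP, by 23.6% and 23.1%, and had fitted changes of -0.01 and -0.03 in SurvNESmut-GFP that did not pass. ACLY stood at 422 and 421 CPM in untreated Surv-GFP, 317 and 326 with TMZ, 286 and 283 in untreated SurvNESmut-GFP and 281 and 282 with TMZ. ACACA stood at 212 and 225, 171 and 165, 231 and 226 and 215 and 233 CPM in the same order. Their differences of effects were 0.37 ± 0.06 and 0.35 ± 0.07 (SE; edgeR adjusted p = 0.000242 and 0.00159) and held in all 16 alternatives. FADS1, the desaturase that follows FADS2, went up from 303 and 306 to 379 and 359 CPM in Surv-GFP and down from 435 and 430.1 to 264 and 362 CPM in SurvNESmut-GFP. The rise, 0.28 ± 0.09 (adjusted p = 0.0171), did not pass in 6 of 17 alternatives, including DESeq2 (adjusted p = 0.189), while the difference, -0.74 ± 0.13 (adjusted p = 0.000308), held in all 16. The fall in SurvNESmut-GFP was -0.47 (adjusted p = 0.000776, and 0.0672 with a robust prior). It was -0.26 without TMZ replicate a and -0.71 without replicate b. FADS1 and FADS2 share exon sequence on opposite strands. ELOVL6, the elongase of saturated chains, had fitted changes of -0.13 and -0.01 that did not pass.

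The clones already differed before TMZ, in both directions. In untreated SurvNESmut-GFP cells 10 of the 31 genes were higher than in the other clone (32.3%, against 34.7% of all tested genes) and 10 were lower (32.3%, against 29.4%), with a median of 0.03 (0.03 over all tested genes). These shares are near those of all tested genes. By role they split, with 5 of 7 mevalonate genes higher while MVD and IDI1 did not pass, and with 4 of 7 fatty acid genes lower and 1 higher. ACAT2 had the largest rise, 0.90 ± 0.08 (SE; edgeR adjusted p = 3.12e-08), from 46.7 and 55.9 to 97.1 and 94.0 CPM, and its exons overlap those of TCP1 and SOD2 on the other strand. MVK was higher by 0.54, HMGCS1 by 0.45 and PMVK by 0.39 on the log2 scale. ELOVL6 had the largest fall, -0.95 ± 0.06 (adjusted p = 1.11e-09), from 56.5 and 57.1 to 28.6 and 30.1 CPM, followed by SCD at -0.63, ACLY at -0.57, FASN at -0.53 and SREBF1 at -0.52. FADS1 was the fatty acid gene that was higher, by 0.50. Of the 20 calls, 19 held in all 17 alternatives, the exception being SREBF2 at -0.19, which did not pass in 5.

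Under TMZ, SurvNESmut-GFP had 7 of the 31 higher than the other clone (22.6%, against 34.5% of all tested genes) and 17 were lower (54.8%, against 34.7%), with a median of -0.24 (0.00 over all tested genes). Without SurvNESmut-GFP TMZ replicate a 15 were lower, and without replicate b 22. The median was then -0.15 and -0.45. The TMZ groups are the same libraries as in the effects above, so these counts are not separate evidence. The log2 difference was -1.01 ± 0.10 (SE) for SCD, -0.97 ± 0.12 for STARD4, -0.86 ± 0.13 for INSIG1 and -0.83 ± 0.06 for ELOVL6. ACAT2 at 0.82, SCAP at 0.69, MVK at 0.57, EBP at 0.53, LSS at 0.49 and ACACA at 0.41 were higher, and PMVK at 0.22 was too. Of the 24 calls, 21 held in all 17 alternatives, the exceptions being MVD, PMVK and FADS1. FADS1 stood at -0.24 and its values overlapped between the clones under TMZ. Without SurvNESmut-GFP TMZ replicate a the differences of FADS1 and MVD were -0.07 and -0.15. Without replicate b those of FADS1, MVD, PMVK, FASN, INSIG1 and SREBF2 were -0.52, -0.46, 0.14, -0.45, -1.30 and -0.58, from -0.24, -0.26, 0.22, -0.28, -0.86 and -0.39 with both.

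**Figure D5:**
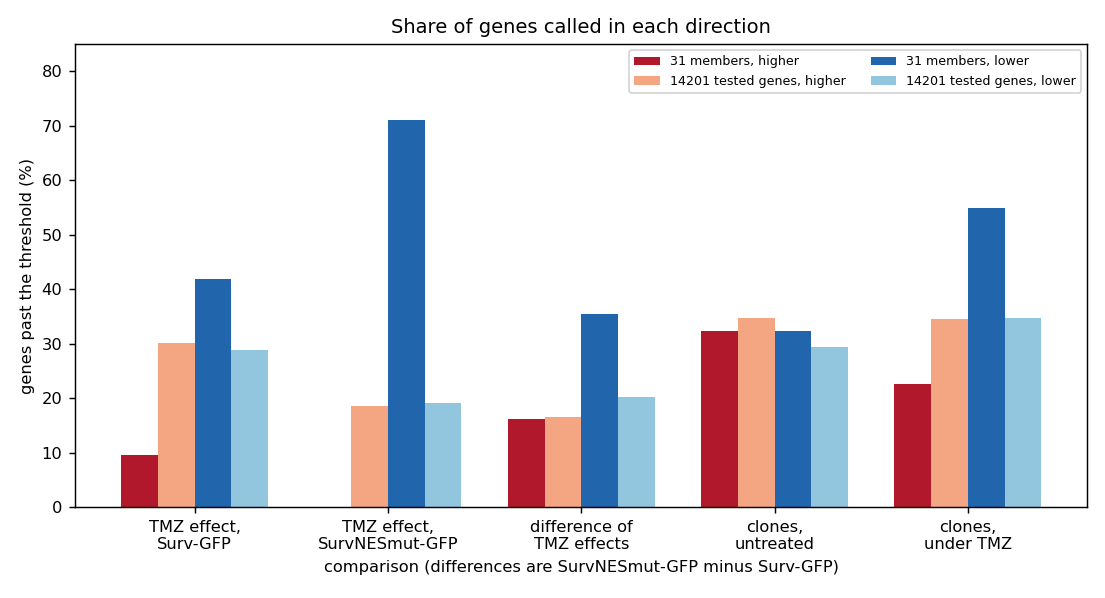
Share of the 31 genes (dark bars) and of all 14201 tested genes (light bars) called higher (red) or lower (blue) in each of the 5 comparisons, in percent. The dark blue bar reaches 71.0% for TMZ in SurvNESmut-GFP, against 19.1% of all tested genes, and the bars of the untreated clones are of like height.

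Genes of related lipid pathways outside the 31 were counted in the same fits. Of all tested genes, 30.1% rose and 28.9% fell in Surv-GFP, and 18.6% rose and 19.1% fell in SurvNESmut-GFP. Of 28 tested genes of other lipid synthesis and SREBP processing, 9 rose (32.1%) and 14 fell (50.0%) with TMZ in Surv-GFP, and 5 rose (17.9%) and 8 fell (28.6%) in SurvNESmut-GFP. MID1IP1, which binds acetyl-CoA carboxylase and promotes fatty acid synthesis, rose by 1.20 ± 0.07 (SE) on the log2 scale in Surv-GFP, and the effect in SurvNESmut-GFP was smaller by 0.98 (log2 difference -0.98 ± 0.09). LBR, a sterol reductase of the nuclear envelope, fell in both clones by 0.94 and 0.61. Of 20 genes of sterol uptake, storage and efflux, 6 rose (30.0%) and 6 fell (30.0%) in Surv-GFP, and 3 rose and 5 fell (25.0%) in SurvNESmut-GFP, shares near those of all tested genes. NPC1, which moves cholesterol out of lysosomes, rose by 0.66 ± 0.05 in Surv-GFP with a difference between the clones of -0.73 ± 0.08. VLDLR, a receptor for lipoproteins, rose by 1.16 ± 0.11 in SurvNESmut-GFP with a difference of 1.11 ± 0.15. SCARB1, another lipoprotein receptor, fell in both by 0.73 and 0.63. Of 24 fatty acid oxidation genes, 1 rose (4.17%) and 10 fell (41.7%) in Surv-GFP, and 2 rose (8.33%) and 5 fell (20.8%) in SurvNESmut-GFP, with CPT1A, the carnitine transferase that admits fatty acids to mitochondria, down by 0.73 ± 0.05 and 0.30 ± 0.05. The difference of effects of the fatty acid oxidation genes passed as above 0 for 10 (41.7%, against 16.6% of all tested genes) and as below 0 for 1 (4.17%, against 20.2%). Of 20 tested genes of glycerolipid synthesis and lipid droplets, 3 rose and 6 fell (30.0%) in Surv-GFP, and 4 rose and 6 fell (30.0%) in SurvNESmut-GFP. DGAT2, which makes triglycerides, fell by 0.96 ± 0.08 in Surv-GFP with a difference between the clones of 1.03 ± 0.11. ABHD5, an activator of lipid droplet breakdown, rose by 0.74 ± 0.08 in SurvNESmut-GFP, and PLIN3, a lipid droplet coat protein, fell there by 0.46 ± 0.05.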

How the data were processed

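RNA of 8 libraries was sequenced on the Illumina platform, and each library was given its clone, exposure and replicate letter from its label. The authors deposited raw read counts, whole numbers listed by gene symbol, for 26364 genes. A further 2 rows, reads on no gene (11.2% to 14.3%) and ambiguous reads (1.19% to 1.28%), name no gene and were kept out of library sizes and tests. The submitters' processing notes name STAR 2.5.0b, Cufflinks 2.2.1 and edgeR. The sources used here do not give their order or use, nor an annotation or genome build. The authors' 5 comparison tables hold their own fold changes and p-values and were not used.

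The tests were run in R 4.3.3 with edgeR 4.0.16. Low counts were filtered with the group-wise filter of that package, and 14201 genes were tested in 1 model with 4 group means over all 8 libraries (TMM normalization, quasi-likelihood F test in its earlier form, Benjamini-Hochberg adjustment over all tested genes, threshold 0.05). Compared were TMZ with no TMZ in each clone, the difference of these effects and the clones with each other without and with TMZ, in 5 contrasts. A log2 fold change is given with its standard error, derived from the F statistic. Alternatives were DESeq2 1.42.0, DESeq2 size factors, library size alone, no filter, a filter of 1 CPM in at least 2 libraries, a robust prior, the newer quasi-likelihood method of edgeR 4, a replicate block, a fit of only the 4 libraries compared and leaving out each library. On simulated data for 13943 genes, with 200 changed by 0.5 on the log2 scale by TMZ in SurvNESmut-GFP, edgeR called 175 of them and 15 others for that effect, and 139 and 10 others for the difference of effects. The changed genes were drawn from the better counted ones, and far fewer genes changed than were called in the data. No gap between replicates shared by many genes was simulated, so the gap within SurvNESmut-GFP with TMZ is not covered.

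Depth was 15826923 to 18861603 counts on genes. A count of 0 allows up to 3 counts, and such limits cover counting error only. Promoters were read from RefSeq (GRCh38.p14). The text names all 31 genes and, of each related list, the gene of smallest p, higher and lower, for each TMZ effect and for their difference, with no overlap between the libraries of an effect. Of these, 1 gene is not reported here. The genes and lists were chosen with earlier results of these data known.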

Additional observations from a re-analysis of the deposited data

Results flagged for a closer look

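Results stand here because the effect of TMZ differed between the clones by a test of the difference itself (edgeR's quasi-likelihood F test, adjusted p under 0.05 over all tested genes). Each value is the log2 fold change in SurvNESmut-GFP minus that in Surv-GFP. Groups of 2 libraries are too small to look for single libraries that stand out. No cause was tested for any of them.

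Among the cholesterol genes the difference was below 0 for HMGCS1 at -0.49, FDPS at -0.27, SQLE at -0.35, CYP51A1 at -0.89, MSMO1 at -0.42 and DHCR7 at -0.52, and above 0 for LSS at 0.25. Among the regulators and the sterol carrier it was -0.83 for INSIG1, -0.40 for INSIG2, -0.998 for STARD4 and 0.31 for SCAP. Among the fatty acid genes it was -0.37 for SCD and -0.74 for FADS1, and it was 0.26 for FASN, 0.35 for ACACA and 0.37 for ACLY. Of these 16 differences, 6 held in all 16 alternatives.

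Of the related genes named by the rule, the difference was 0.55 for ELOVL2, an elongase of long unsaturated chains, -0.98 for MID1IP1, 1.11 for VLDLR and -0.73 for NPC1. It was 0.84 for CROT, a peroxisomal carnitine transferase, and -0.25 for ACADVL, a dehydrogenase of fatty acid oxidation. It was 1.03 for DGAT2 and -1.16 for AGPAT4, an acyltransferase of glycerolipid synthesis.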

How the results depend on the processing

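The counts of genes called in each comparison stayed within 1.5 times the reported count under most alternatives. With a robust prior 1 gene rose with TMZ in Surv-GFP, CYP51A1, in place of 3. With library size alone 1 gene, SCAP, rose in SurvNESmut-GFP in place of 0. Genes whose difference of effects passed as below 0 were 7 with DESeq2 and 6 with a robust prior, in place of 11. Leaving out 1 library at a time gave 2 to 4 genes that rose in Surv-GFP, 7 to 18 genes with a difference that passed as below 0 and 3 to 6 as above 0. It gave medians of -0.58 to -0.17 for TMZ in SurvNESmut-GFP, -0.38 to -0.074 for the difference of effects and -0.45 to -0.15 for the clones under TMZ, the ends of which were the fits without SurvNESmut-GFP TMZ replicate b and replicate a. FADS2 ended up on either side of 0, from -0.35 to 0.32 for the difference of effects and from -0.19 to 0.48 for the clones under TMZ. When 1 library of a group was left out, the lone sample was assumed to vary like the other groups.

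Groups share the letters a and b, and the sources used here do not say whether the letters pair the samples. The differences between a and b correlated at -0.07 to 0.08 across groups. This shows little spread shared by letter, but it cannot show whether the samples were prepared in pairs. With a replicate block, TMZ gave 3 genes higher and 13 lower in Surv-GFP. It gave 0 higher and 22 lower in SurvNESmut-GFP, and the difference passed as above 0 for 5 and as below 0 for 12, IDI1 being the added gene. The fit of only the 4 libraries compared could not be made for the difference of effects. The causes of these changes were not tested. TM7SF2, the least counted of the 31 genes, had 75 to 119 counts in a library, so counting error bears most on this gene.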
